A study of Mus musculus with 6 samples.

Results

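Disome footprints in mouse liver were compared between zeitgeber time (ZT, counted from lights on) 2, early in the light phase, and ZT12, when the lights went off. The comparison took the 2 ZT12 libraries and the 2 ZT2 libraries by their labelled time point, 4 of the 6 libraries of the series. The genes compared were those with a mean of at least 1 RPKM (library-scaled reads for each kilobase of the gene model) over the 6 libraries, 8355 of the 8941 listed. All groups were males of the inbred laboratory strain C57BL/6JRj aged 11 to 12 weeks. The labels name no transgene or treatment. The mice had been entrained for 2 weeks to 12 h of light and 12 h of dark, and were collected in the same cycle. Each library came from the pooled lysates of 2 mice, so n below counts pools. The ZT0 libraries, also 2 pools, served in the estimate of the spread and as a further level beside each result.

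A disome footprint is the messenger RNA covered by a pair of ribosomes so close that nuclease cannot cut between them. Such pairs form where a leading ribosome slows or stops and the next one runs into it. The level of a gene rises with the amount of its messenger RNA, with how often that RNA is translated and with how long ribosomes stay at slow positions. In liver, transcript levels of many genes cycle over the day under the circadian clock and the daily rhythm of feeding, which in mice falls mostly in the dark. Neither total RNA nor single-ribosome footprints were analysed here, so these sources cannot be told apart, nor can fewer cells of a type be told from fewer disomes per cell. The tables hold Ensembl identifiers with no symbols, and 0 of 8941 could be paired with a name. Genes are therefore described by identifier, rank, level and coding length. The liver label was not tested against marker genes, and which functions the changes belong to was not tested.

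Recovered reads (whole reads worked out from the steps of the RPKM values) totalled 6346387 and 7845062 at ZT2, 12322651 and 11904184 at ZT12, and 7197462 and 7816463 at ZT0. The replicates stood farther apart at ZT2 than elsewhere. The pooled replicate SD of log2(RPKM + 1) was 0.53 at ZT2, 0.35 at ZT12 and 0.25 at ZT0. Among the tested genes, 55 and 166 were listed at 0 in ZT2 replicates 1 and 2, against 3 and 34 in the ZT12 libraries. Over all 8941 listed genes it was 97 and 250 at ZT2, 4 and 52 at ZT12, and 4 and 4 at ZT0. ZT2 replicate 2 and ZT0 replicate 2 had nearly the same total of reads.

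Of the tested genes, 2.06% (172) differed between the time points at an adjusted p under 0.05 in limma, with a single spread estimated from all 6 libraries. By direction, 1.07% (89 genes) were higher at ZT12 and 0.993% (83 genes) were lower. Of the 172, 162 exceeded 2-fold on the log2(RPKM + 1) scale, against 756 of all 8355 tested genes. The 95% interval of a change had a median half-width of 0.69 (log2), so mostly large changes could be called. The sizes below therefore describe the calls and not daily changes in general. Among the genes that rose, 33 exceeded 4-fold and 8 exceeded 8-fold. Among those that fell, 23 exceeded 4-fold and 8 exceeded 8-fold. The middle 50% of rises lay between 1.34 and 2.18 (log2), and of falls between -1.22 and -2.09. The smallest change called was 0.79 (log2). Scaling all libraries to an equal sum of RPKM took the median log2 change over the tested genes from 0.03 to 0.17, and the split was 132 higher and 61 lower. With the same total of reads, at a median of 0.12, it was 112 and 66. The near balance of rises and falls therefore held for the deposited scaling and quantile normalization, and not for either scaling to a total.

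**Figure D1:**
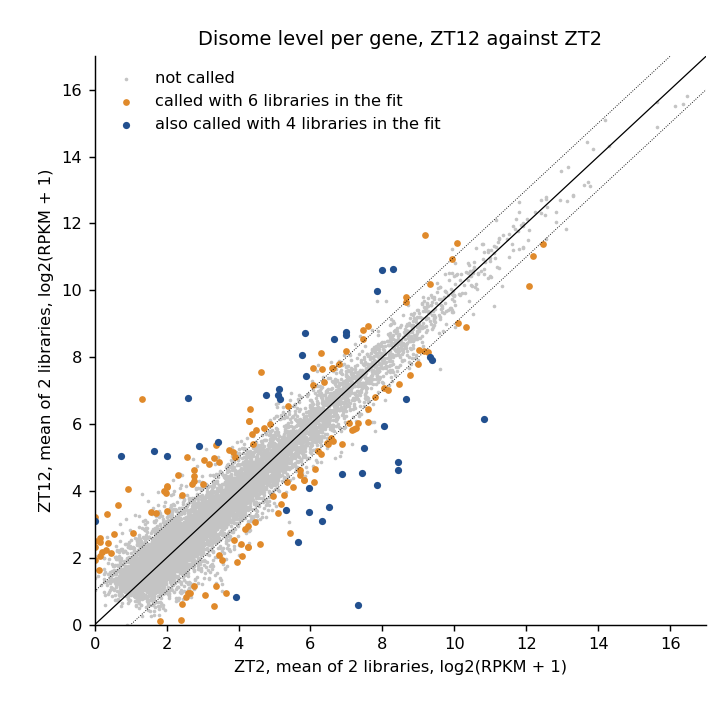
Each point is 1 of 8355 genes, with the mean log2(RPKM + 1) of the 2 ZT2 libraries on the x axis and of the 2 ZT12 libraries on the y axis; the solid line marks equal levels and the dotted lines a 2-fold difference. The 172 called genes lie mostly outside the dotted lines on either side, and the 39 also called from the 4 libraries alone are drawn in blue.

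The spread shared with ZT0 was smaller than that of the libraries compared. Fitting limma to the 4 libraries alone, without ZT0, left 0.467% (39 genes) called, of which 20 rose and 19 fell. All 39 were among the 172, and the adjusted p of the other calls reached 0.17 in that fit. The 39 changed by at least 1.32 (log2), with a median of 2.22 for those that rose and -2.91 for those that fell. They were also the better covered, with a median of 98.5 RPKM against 27.3 RPKM for the remaining calls and 8.63 RPKM over all tested genes. Each of the 6 libraries was also left out in turn, and the count moved widely. The library left at that time point then adds nothing to the spread, so the time points that supply the spread change too. Without either ZT0 library, the spread came from the 4 libraries compared, and these fits nearly repeat the fit without ZT0. Across the 6 fits with a library left out and 14 other settings none of the 172 genes changed direction (0 genes). All 172 had both ZT12 libraries on the same side of both ZT2 libraries, so most of these settings could not reverse a direction. Of the 172, 36 were called in each of the 14 settings in which they were tested, 18 in each direction. The call was kept in all 20 by 5 genes, of which 1 rose and 4 fell.

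The largest rise was in ENSMUSG00000026475, with 603 nucleotides of coding length. It was listed at 0 and had 5.16 RPKM in ZT2 replicates 1 and 2, and had 73.4 and 157 RPKM at ZT12. Both ZT12 libraries were far above both ZT2 libraries, although they differed from each other by more than 2-fold, and the ZT2 values rested on 0 and 24 reads. The ratio of mean RPKM was 44.7, with only 1 of the ZT2 libraries above 0, and its change on the log2(RPKM + 1) scale was 5.45 ± 0.85 (SE; adjusted p of 0.030, limma). The size ran from 3.98 to 7.21 over 20 settings, and leaving out ZT2 replicate 1 gave 4.14 where leaving out ZT2 replicate 2 gave 6.76. The call was lost in 8 of these settings, at an adjusted p of 0.064 with the 4 libraries alone in limma and up to 0.24 without ZT12 replicate 2. At ZT0 the gene stood at 0.235 and 1.94 RPKM, from 1 and 9 reads.

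ENSMUSG00000023087, with a coding length of 1287 nucleotides, had the next largest rise. Its libraries read 1.51 and 0.101 RPKM at ZT2, from 12 reads and 1 read, and 30.5 and 33.2 RPKM at ZT12, from 514 and 528 reads. The ZT12 pools nearly coincided, and neither ZT2 pool came near them. The log2 change was 4.30 ± 0.41 (SE), with an adjusted p of 0.0067 in limma and 0.020 from the 4 libraries alone. Its size ran from 2.68 with a pseudocount of 5 to 6.21 with voom on the recovered reads, and the call was lost without ZT12 replicate 1 (limma adjusted p of 0.051) and without ZT12 replicate 2 (0.11). The ZT0 libraries, at 3.31 and 4.54 RPKM, lay above both ZT2 libraries and below both ZT12 libraries.

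The largest fall was in ENSMUSG00000057163, with a coding length of 738 nucleotides. It had 111 and 230 RPKM at ZT2, from 504 and 1307 reads, and 0 and 1.32 RPKM at ZT12, from 0 and 12 reads. Both ZT0 libraries listed it at 0, so the reads of this gene came almost wholly from the ZT2 pools, of which replicate 2 was the higher. The log2 change was -6.72 ± 0.49 (SE), with an adjusted p of 0.0033 in limma and 0.0092 from the 4 libraries alone. It was called in all 20 settings in which it was tested, with a size from -4.87 to -9.24.

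ENSMUSG00000038754, with 813 nucleotides of coding length, fell from 1669 and 1949 RPKM at ZT2 to 68.3 and 70.5 RPKM at ZT12. Every library held at least 708 reads of it, so counting error was small, and the replicates lay close together beside the gap between time points. The ratio of mean RPKM was 26.1 in favour of ZT2, the log2 change was -4.68 ± 0.15 (SE), and the adjusted p was 5.7e-05 in limma and 0.00080 from the 4 libraries alone. The call was kept in all 21 settings, the threshold of 0.1 among them, with a log2 change between -4.52 and -4.79. At ZT0 it was higher still, at 2632 and 2622 RPKM.

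**Figure D2:**
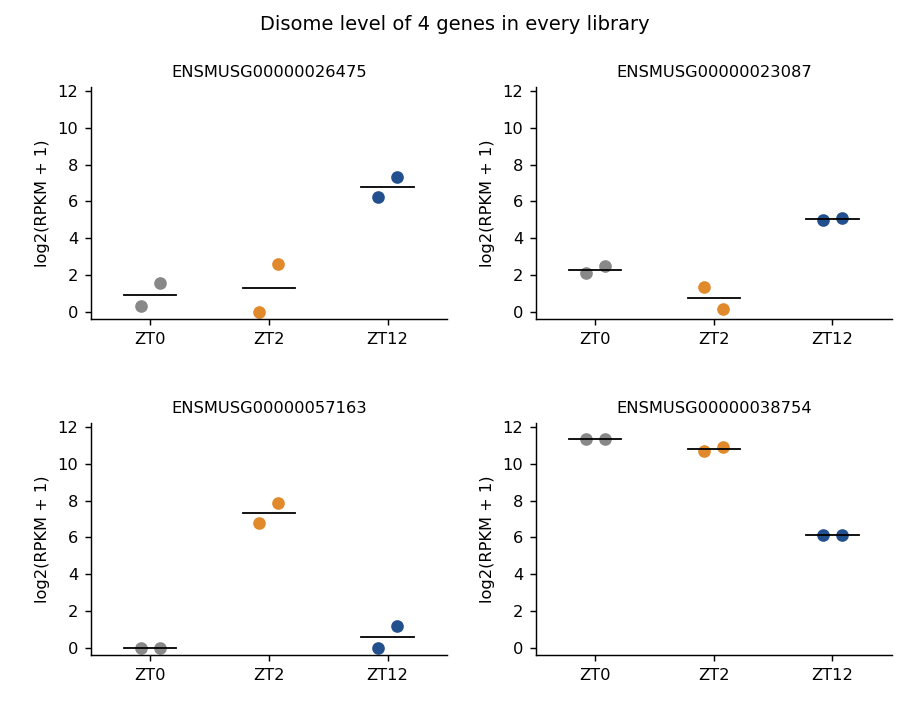
Points give log2(RPKM + 1) of each library at ZT0, ZT2 and ZT12 for 4 genes, and bars the mean of 2 libraries. The upper genes stand high at ZT12 alone, ENSMUSG00000057163 stands high at ZT2 alone, and ENSMUSG00000038754 is low at ZT12 alone.

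The next 10 rises had log2 changes of 2.88 to 4.19, with limma adjusted p-values of 0.0099 to 0.028. Their mean levels ran from 0 to 57.7 RPKM at ZT2 and from 7.63 to 431 RPKM at ZT12. The third rise went from 8.70 and 2.71 RPKM in the ZT2 libraries to 130 and 91.1 RPKM in the ZT12 libraries. In the fourth, 2.75 and 1.62 RPKM became 30.7 and 40.6 RPKM. Both had ZT0 means near those of ZT2, at 7.11 and 3.81 RPKM. The twelfth had the highest mean RPKM of these first 12 rises. It had 65.9 and 49.5 RPKM at ZT2 against 495 and 366 RPKM at ZT12. Its ZT0 libraries lay between, at 201 and 100 RPKM. Of the first 12 rises, 6 were also called from the 4 libraries alone.

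The next 10 falls had log2 changes of -2.71 to -3.79, with limma adjusted p-values of 0.00092 to 0.031. The third fall, in a gene of 420 coding nucleotides, went from 283 and 413 RPKM down to 20.2 and 28.2 RPKM, and its ZT0 libraries lay between, at 132 and 124 RPKM. The fourth had 267 and 197 RPKM at ZT2, 18.8 and 15.5 RPKM at ZT12, and stood at ZT0 where it stood at ZT2, at 214 and 237 RPKM. The sixth had a different course. It had 66.8 and 93.6 RPKM at ZT2, and its ZT0 libraries, at 5.51 and 8.29 RPKM, were as low as its ZT12 libraries, at 8.71 and 6.60 RPKM. The eighth went from 14.6 and 13.7 RPKM to 0.854 and 0.690 RPKM, while ZT0 stood at 11.5 and 12.0 RPKM. Of the first 12 falls, 10 were also called from the 4 libraries alone.

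Of the 100 genes with the highest mean, the lowest of them at 1435 RPKM, 7 were called against 2.06% of all tested genes, 3 higher and 4 lower, and 11 differed by more than 2-fold. Their median log2 change was 0.01. The most abundant gene called fell 2.10-fold, from 5534 and 5661 RPKM at ZT2 to 2481 and 2843 RPKM at ZT12, or by -1.08 ± 0.17 (SE) on the log2(RPKM + 1) scale, at an adjusted p of 0.032 in limma. The second fell from 4831 and 4411 RPKM to 2159 and 2034 RPKM, and the third from 5014 and 3683 RPKM to 1442 and 852 RPKM. The fourth rose from 1138 and 1019 RPKM to 2233 and 3294 RPKM. The fifth, with a coding length of 450 nucleotides, rose 5.42-fold, from 782 and 425 RPKM to 3970 and 2576 RPKM. None of these 5 was called from the 4 libraries alone (0 genes), where their limma adjusted p was 0.051 to 0.10.

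Calls were more frequent among well covered genes. Of 3013 genes with 1 to 5 RPKM, 0.797% were called, of 2613 with 5 to 20 RPKM 1.57%, of 1722 with 20 to 100 RPKM 2.85%, and of 881 with 100 to 1000 RPKM 5.79%. Above 1000 RPKM it was 5.56% of 126. From the 4 libraries alone these classes gave 0, 6, 14, 18 and 1 calls. The replicate difference moved the other way, with a median at ZT2 of 0.50 (log2) in the lowest class and 0.27 in the highest. By coding length, 2.98% of the 2084 genes of 54 to 818 nucleotides were called, and 0.670% of the 2091 genes of 2094 nucleotides or more. The ability of the test to find a change was not compared between classes, so the shares describe calls and not how many genes changed.

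**Figure D3:**
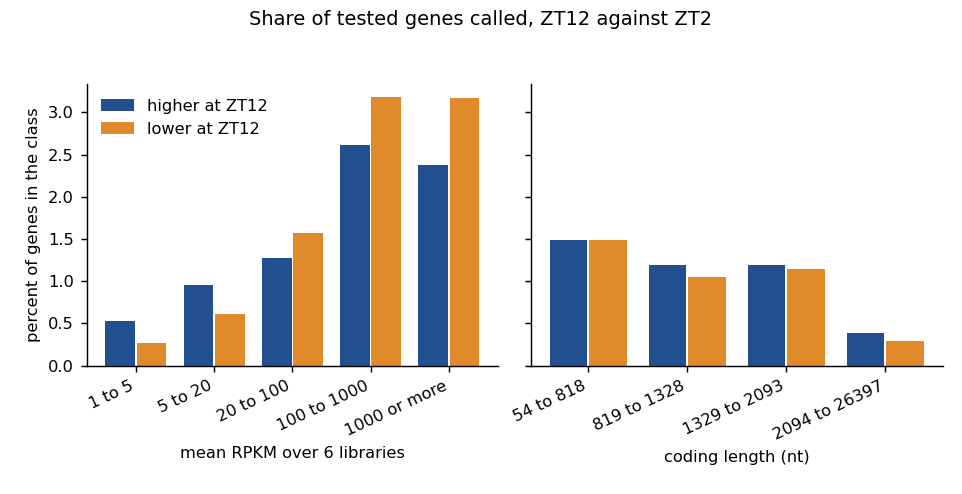
Bars give the percent of tested genes called higher (blue) or lower (orange) at ZT12, by mean RPKM over 6 libraries on the left and by coding length in nucleotides on the right. The shares rise from 0.531% and 0.266% at 1 to 5 RPKM to 2.61% and 3.18% at 100 to 1000 RPKM, and are lowest for the longest genes.

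The genes that rose were a small part of the disome pool. They held 0.734% and 0.720% of recovered reads in the ZT2 libraries and 2.28% and 2.62% in the ZT12 libraries. The genes that fell held 3.61% and 3.38% at ZT2 and 1.48% and 1.39% at ZT12. These shares follow from how the genes were chosen. The ZT0 libraries, which did not enter the difference, held 1.05% and 1.00% on the genes that rose and 2.68% and 3.01% on those that fell.

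The ZT0 libraries stood closer to ZT2 than to ZT12 for most of the called genes. On the log2(RPKM + 1) scale the ZT0 mean was nearer to ZT2 for 69 of the 83 genes that fell and nearer to ZT12 for 14. For 30 of the 83 it was at or above the ZT2 mean. Among the 89 genes that rose, the ZT0 mean was nearer to ZT2 for 53 and nearer to ZT12 for 36. Among the genes called from the 4 libraries alone, the ZT0 mean was nearer to ZT2 for 16 of 20 rises and 16 of 19 falls. These positions were not tested, the genes were chosen by their ZT2 and ZT12 values, and a comparison of ZT12 with ZT0 would share the ZT12 libraries. The same positions were not counted over all tested genes, so whether the called genes depart from the rest is not known.

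**Figure D4:**
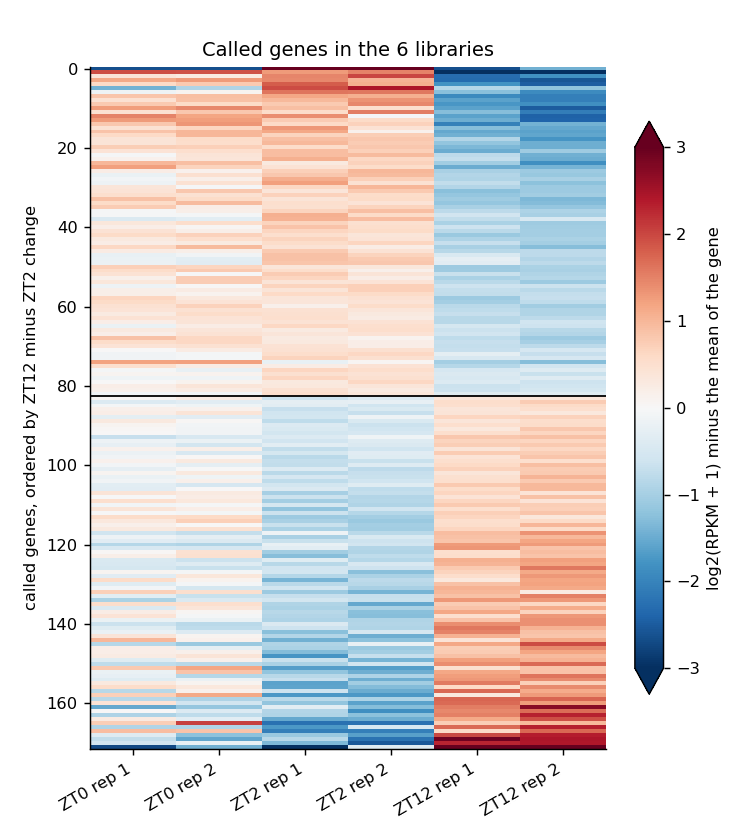
Rows are the 172 called genes ordered by their ZT12 minus ZT2 change and columns the 6 libraries; colour gives log2(RPKM + 1) minus the mean of the gene, limited to 3 either way, and the line parts the 83 falls from the 89 rises. The ZT12 columns contrast with both ZT2 columns throughout, while the ZT0 columns mostly resemble ZT2 in the upper block and are mixed in the lower.

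Some rises rested on an absence of reads at ZT2. At least 1 ZT2 library listed 0 for 14 of the 89 genes that rose, against 2.55% (213) of all tested genes, and 5 of the 14 were at 0 in both. Their median coding length was 661 nucleotides, against 1173 for the other 75 rises. The ZT0 mean was nearer to ZT12 for 10 of the 14, and for 26 of the 75 with reads in both ZT2 libraries. The 89 genes were chosen as lower at ZT2, which favours zeros there. Very low ZT2 values also favour a ZT0 mean away from ZT2, so both contrasts follow in part from the choice. The 5 genes at 0 in both had 17 to 65 reads in the single ZT12 libraries. A floor of 3 reads over both ZT2 libraries together covers counting error at ZT2 only. Their ZT12 means stood 6.56-fold to 17.3-fold above this floor, with the counting error of the ZT12 reads left out. The gene with the 6.56-fold value had more at ZT0 than at ZT12, at 12.8 RPKM ± 8.46 against 7.63 RPKM ± 0.917 (SD, n = 2 each). Of the 14 genes, 1 was called from the 4 libraries alone. The part of the uneven zeros of ZT2 in these rises was not tested.

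Many differences stayed unresolved. Before adjustment, 19.2% of tested genes (1604) had a limma p under 0.05 with all 6 libraries in the fit, 838 of them higher at ZT12 and 766 lower. From the 4 libraries alone it was 1134 genes, and 418 would be the number under no change. The libraries of the 2 time points did not overlap for 45.9% of tested genes, with ZT12 above ZT2 for 23.6% and below it for 22.3%. They did not overlap for any of the 172 called. With 2 libraries at each time point, such separation is frequent without any change. The share under no change was not computed, so the 45.9% is not a share of genes that differed. A difference over 2-fold on the log2(RPKM + 1) scale was measured for 756 genes, 434 higher and 322 lower, and 594 of these were not called. The 95% interval of the change in log2(RPKM + 1), from the limma fit with all libraries, lay within 2-fold either way for 3692 genes (44.2%). From the 4 libraries alone it did so for 2667. Of the 3692, 817 averaged 1 to 5 RPKM, where the added 1 RPKM shrinks a change. For such genes the interval does not limit the change in RPKM to under 2-fold. For the genes not called and outside the 3692, these libraries do not limit the change to under 2-fold on either scale. At the edge of the filter, the tested gene with the lowest mean, 1.00 RPKM, had 0.558 RPKM at ZT2 and 0.769 RPKM at ZT12, and the first gene left out had 0.879 and 0.324 RPKM.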

How the data were processed

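Disome footprints were sequenced in 6 liver libraries. The authors deposited RPKM values per Ensembl gene, 1 table per library, with no header. Per the labels' protocols, cycloheximide lysates were treated with RNase I (650 U, 45 min) and ribosomes were collected by size exclusion. The tools were CASAVA 1.82, Bowtie2 2.3.0, STAR, cutadapt, edgeR and StringTie, with builds GRCm38.p2 and mm10, per the submitters' processing notes, which do not give their roles here.

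Whole reads were recovered for all 8941 genes from the steps of the values, to a relative tolerance of 5e-13. A common factor was corrected in 74 genes through their length, and a few genes may still be too low. The deposited RPKM followed the upper quartile of reads. In 95.2% of genes the length was a multiple of 3, so lengths are called coding lengths.

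Genes averaging at least 1 RPKM were tested on log2(RPKM + 1) with limma 3.58.1 in R 4.3.3, with a mean per time point, a variance trend, 3 residual degrees of freedom and Benjamini-Hochberg adjustment over all 8355 genes at 0.05. It was tested on simulated data. Fold values are ratios of mean RPKM. Genes were named by the largest rise and fall among called genes with libraries apart. That rule, the comparison and all lists were chosen with earlier results of these data known. As 0 identifiers matched the reference table, whose Ensembl column is empty, only 2 identifiers are printed each way, and 29 gene lists, 12 marker lists and 8 promoter motifs were not applied and no sequences are shown. Alternatives covered the pseudocount, filter, scaling, variance model, weights, libraries in the fit, replicate block, threshold, voom and each library left out.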

Additional observations from a re-analysis of the deposited data

How the results depend on the processing

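The 172 genes called, 89 higher and 83 lower at ZT12, became 80 (42 and 38) without the variance trend, 39 (20 and 19) from the 4 libraries alone, 57 (30 and 27) with array weights per time point, 356 (157 and 199) with voom on the recovered reads and 423 (218 and 205) at a threshold of 0.1. Voom shared 141 calls with the 172. The replicate block, a term for the replicate number, gave 113 (58 and 55); libraries with the same number departed from their time point means at correlations of -0.076, -0.019 and 0.018, and these numbers were not taken as pairs. Leaving out each library gave 5 to 597 genes, 1 to 426 higher and 4 to 195 lower, where the single library left at a time point borrows its spread from the rest. For these shifts the cause was not tested. Pseudocounts of 0.1 and 5, the other filters, the robust prior and the other scalings kept all 3 counts within a factor of 1.5. For the 4 genes printed by identifier, 82 values were computed, of which 72 kept their call, 10 lost it and 0 changed direction. The ZT2 and ZT12 libraries of these genes did not overlap, so most settings could not reverse a direction. The threshold of 0.1, among the settings, could not lose a call. The alternatives for gene lists were left unrun, since the identifiers match none of the lists. Depth ranged from 6346387 to 12322651 recovered reads per library, and the lower levels of several of the largest changes rested on under 20 reads.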
